A study of Mus musculus with 9 samples.

Results

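Adult fast-twitch skeletal muscle fibres build their contractile machinery from a set of genes that are separate from those used in the working heart, and 10 of these genes were examined here in mouse hearts: Pvalb, Tnnt3, Tnni2, Tnnc2, Mylpf, Myl1, Myh4, Myh1, Atp2a1 and Actn3. They were taken by symbol from the 53465 gene IDs of the count files, and all 10 matched. Pvalb was chosen by its measured counts, which were lower in ligated hearts with cells than in ligated hearts, so its values are given as a description and are not tested. The other 9 genes were added as its partners in fast fibres. The samples were 9 libraries of total RNA from hearts of NOD-SCID mice, a strain with severe combined immunodeficiency, and in all 3 groups the sampled region is given as the border zone of the infarct. The sham group (3 libraries) had surgery only, the ligation group (3 libraries) had a coronary artery tied, and the cells group (3 libraries) had the ligation and an implant of FOXO3-GE-MPCs. The labels give no age, sex or time after surgery, and the source field of cells replicates 2 and 3 names other FOXO numbers than the title and treatment field, which were followed. Nothing says that the 3 libraries of a group came from separate animals, so p-values measure only the spread between these libraries. The file headers of sham replicates 1 and 2 carry the same name stem, as do those of ligation replicates 2 and 3.

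A skeletal muscle fibre contracts when calcium released from the sarcoplasmic reticulum binds troponin C, which moves the other troponins and tropomyosin and lets myosin heads pull on actin. It relaxes when the calcium pump returns calcium to the reticulum, and in fast fibres of rodents the soluble protein parvalbumin, made from Pvalb, takes up calcium in the meantime. Cardiomyocytes use cardiac paralogs of these proteins, so the fast forms are normally scarce in ventricle. Parvalbumin is also known as a marker of a class of inhibitory neurons.

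The upstream sequences show what these genes do and do not share next to their start sites. They are printed for 4 genes whose levels differed in pattern across the groups: Pvalb and Myh4, which were highest after ligation, Myl1, which was highest with cells, and Mylpf, whose groups overlapped. Each is the 250 bases before a RefSeq start in build GRCm38.p6, written 5′ to 3′ on the gene's strand. Capitals mark matches to the E-box CANNTG, the site type bound by myogenic factors such as MyoD, and to the MEF2 consensus motif, bound by myocyte enhancer factor 2. Both motifs read alike on either strand, and no E-box overlapped a MEF2 match in these sequences.
Pvalb, chr15:78206401-78206650, minus strand: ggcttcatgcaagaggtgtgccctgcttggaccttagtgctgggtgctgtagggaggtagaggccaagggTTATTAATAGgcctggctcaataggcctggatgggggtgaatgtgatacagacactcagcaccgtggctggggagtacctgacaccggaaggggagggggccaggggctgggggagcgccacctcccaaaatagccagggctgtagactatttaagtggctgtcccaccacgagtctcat
Myh4, chr11:67237562-67237811, plus strand: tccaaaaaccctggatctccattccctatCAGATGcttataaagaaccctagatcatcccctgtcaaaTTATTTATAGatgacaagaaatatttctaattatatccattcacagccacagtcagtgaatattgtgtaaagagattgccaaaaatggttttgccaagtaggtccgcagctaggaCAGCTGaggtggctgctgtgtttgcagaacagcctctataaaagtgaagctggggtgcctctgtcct
Mylpf, chr7:127211358-127211607, plus strand: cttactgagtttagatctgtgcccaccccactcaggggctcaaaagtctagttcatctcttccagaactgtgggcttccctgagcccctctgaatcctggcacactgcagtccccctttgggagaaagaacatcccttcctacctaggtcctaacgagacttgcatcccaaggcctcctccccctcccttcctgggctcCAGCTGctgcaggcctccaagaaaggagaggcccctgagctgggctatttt
Myl1, chr1:66945057-66945306, minus strand: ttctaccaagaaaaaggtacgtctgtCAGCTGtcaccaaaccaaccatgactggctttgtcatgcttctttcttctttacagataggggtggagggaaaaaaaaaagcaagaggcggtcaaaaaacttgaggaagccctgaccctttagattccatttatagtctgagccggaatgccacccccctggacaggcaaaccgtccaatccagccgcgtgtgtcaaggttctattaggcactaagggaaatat
The printed upstream sequence of Pvalb held 1 MEF2 match and 0 E-boxes, and that of its other RefSeq start (chr15:78204238-78204487, not printed) held 0 MEF2 matches and 1 E-box. Of the others printed, that of Myh4 held 1 MEF2 match and 2 E-boxes, and those of Mylpf and Myl1 held 1 E-box each and 0 MEF2 matches. The table of promoters covered 7 of the 10 genes with 8 starts, of which 6 had an E-box and 3 a MEF2 match. Among all 32851 promoters in it, 66.2% had an E-box and 2.92% a MEF2 match. A match is a string of letters, and whether any factor binds there was not measured.

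Libraries held 4549268 to 7515052 gene counts, the lowest in ligation replicate 1 and the highest in ligation replicate 3. Levels are CPM, read counts scaled to a common library size with TMM factors, and 1 library's limit of detection, set at 3 counts, was 0.374 to 0.638 CPM. At the levels of most fast genes a library held a few to 30 reads, so each value carries a large counting error. The labelled tissue was plain in the markers: the 11 cardiac genes on the list of counterparts (among them Myh6, Tnnt2, Tnni3, Actc1 and Myl2) summed to 62708 ± 798 CPM (SD, n = 3) in sham, 47292 ± 1189 in ligation and 47271 ± 650 with cells. Whole-tissue RNA was sequenced, so fewer cells of a type and less RNA per cell cannot be told apart.

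Tnnc2 had 0 counts throughout and Pvalb was chosen by its counts, so the CPM ranges of the groups were first compared for the other 8 fast genes. Between ligation and sham, 5 of these 8 did not overlap and were higher after ligation (Tnnt3, Myl1, Myh4, Myh1 and Actn3), where 15.4% of the 25606 genes with at least 1 count were, and 0 were lower, where 14.3% were. Between cells and sham, 1 of 8 was higher (Myl1), against 15.0% of those genes, and 2 were lower (Tnni2 and Atp2a1), against 16.1%. Pvalb itself was higher in the first comparison and lower in the second. In the contrast that brought Pvalb forward, cells against ligation, 5 of 8 were lower (Tnnt3, Tnni2, Myh4, Atp2a1 and Actn3), as Pvalb was, where 9.44% of genes were, and 1 was higher (Myl1) where 8.19% were. Nothing is read from those 2 counts, since the contrast was used in the choice. Its ligation and cells libraries also enter the other comparisons, and the genes were listed with earlier results of these data known. The counts of those comparisons are therefore a description too, and not a test. Mylpf overlapped in every comparison, and Myl1 was highest with cells, where Pvalb was lowest.

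**Figure D1:**
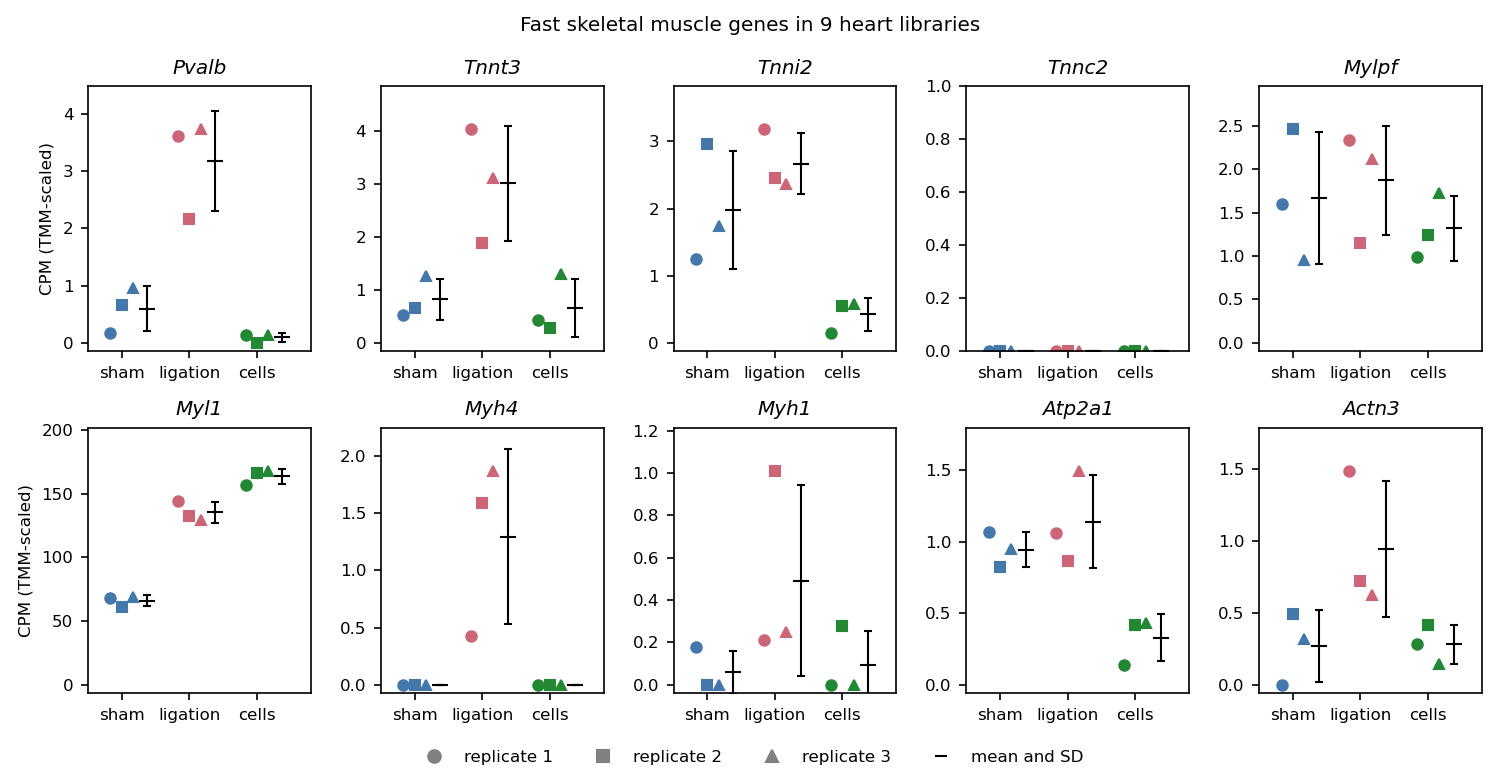
CPM (TMM-scaled, linear axis, a separate scale per gene) of the 10 fast skeletal muscle genes in each of the 9 libraries, with marker shape for the replicate and a black bar for the group mean with its SD. Pvalb was at 2.17 to 3.74 CPM in ligation and at most 0.144 CPM with cells, Myl1 was highest with cells, and Tnnc2 had 0 counts throughout.

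Pvalb (ENSMUSG00000005716, chr15:78191114-78206400, minus strand) had 1, 4 and 6 counts in sham replicates 1 to 3, 17, 15 and 30 in ligation, and 1, 0 and 1 with cells. Every ligation library lay above every sham library, and every cells library lay below the lowest sham library, the latter by 1 count in a shallower sham library against 1 count. The means were 0.595 ± 0.390 CPM (SD, n = 3) in sham, 3.17 ± 0.875 in ligation and 0.0951 ± 0.0823 with cells. With 62 counts pooled over ligation and 2 over the cells group, Pvalb was 33.5-fold lower with cells, and against the 11 pooled sham counts the cells group was 6.48-fold lower. Since these counts chose the gene, no interval is given for them. In the GENCODE annotation Pvalb shared 0% of its exon bases with another gene, and 0% of its 31-mers (all stretches of 31 exon bases).

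Among the troponins, Tnnt3 (ENSMUSG00000061723, chr7:142498836-142516009), which encodes fast troponin T, had 3, 4 and 8 counts in sham, 19, 13 and 25 in ligation and 3, 2 and 9 with cells. The ligation libraries stood above all others, while sham and cells overlapped. Its level was 0.819 ± 0.393 CPM (SD, n = 3) in sham and 3.01 ± 1.08 in ligation, a log2 fold change of 1.80 (SE 0.501, adjusted p 0.00714, edgeR), with 3 of 3 ligation libraries higher. With cells it was at 0.665 ± 0.549 CPM, 4.40-fold lower than in ligation in pooled counts. In edgeR's fit that log2 difference was -2.12, and -3.01 without cells replicate 3, which held 9 of the 14 counts of the group. Against sham the cells group had a log2 difference of -0.32 (SE 0.638, edgeR adjusted p 0.718), which was -1.20 without cells replicate 3 and turned to 0.14 without sham replicate 3 and 0.05 without cells replicate 2. Tnnt3 and Pvalb passed the filter on low counts through the ligation libraries alone, which reached its level in 3 of 3 while no sham or cells library did. Without that filter Tnnt3 kept an adjusted p of 0.00235 in ligation against sham (edgeR, 25606 genes).

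Tnni2 (ENSMUSG00000031097, chr7:142441808-142444410), which encodes fast troponin I, the inhibitory subunit, lies on the same chromosome a short way from Tnnt3. It had 7, 18 and 11 counts in sham, 15, 17 and 19 in ligation and 1, 4 and 4 with cells. Here sham and ligation overlapped and the cells group alone stood apart, below both. The ligation level was 2.67 ± 0.450 CPM (SD, n = 3), the sham level 1.98 ± 0.882 and the level with cells 0.423 ± 0.244. From sham to ligation the log2 difference was 0.39 (SE 0.396, edgeR adjusted p 0.468). From sham to cells Tnni2 fell by 2.18 on the log2 scale (SE 0.537, edgeR adjusted p 0.00263), lower in 3 of 3 libraries. Over fits that each left out 1 library it fell by 1.78 to 2.45, with edgeR adjusted p-values up to 0.0285. Tnni2 passed the filter on low counts through 2 sham and 3 ligation libraries and 0 cells libraries, so only through groups where it was higher. Without that filter its adjusted p in cells against sham was 0.000888 (edgeR, 25606 genes). The ranges of Tnni2 in sham and ligation overlapped, whereas those of Pvalb did not.

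Tnnc2 (ENSMUSG00000017300, chr2:164777161-164779967), the calcium-binding fast troponin C, had 0 counts in all 9 libraries. In the GENCODE annotation 74.0% of its exon bases also lie in exons of Ube2c on the opposite strand, and 59.0% of its 31-mers occur in that gene. Reads assigned to more than 1 gene were set aside as ambiguous in the files (8.09% to 8.72% of all reads in the tables), and the strand setting of the counting is not given in the sources used here. If strand was not used, a count of 0 for Tnnc2 bears only on the part of the gene outside the overlap.

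Of the myosin heavy chains, Myh4 (ENSMUSG00000057003, chr11:67238029-67260446), the IIb motor of the fastest fibres, had 2, 11 and 15 counts in ligation and 0 in every sham and cells library. Counts of Myh4 thus came from the ligation group only. The group was at 1.29 ± 0.766 CPM (SD, n = 3), at least 8.56-fold higher than the level that 3 counts over the whole sham group would give, and at least 10.1-fold higher than that of the cells group. The edgeR fit without a filter on low counts gave an adjusted p of 0.000122 for ligation against sham. Of the 28 reads, 26 came from ligation replicates 2 and 3, the pair whose headers share a name stem.

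Myh1 (ENSMUSG00000056328, chr11:67200052-67224575), the IIx motor, had 1, 0 and 0 counts in sham, 1, 7 and 2 in ligation and 0, 2 and 0 with cells. Its separation of ligation from sham rests on 1 count in the shallow ligation replicate 1 against 1 count in sham replicate 1, and the edgeR adjusted p without a filter was 0.185. Myh2, the IIa motor of fast oxidative fibres and no member of the set, had 0 counts in sham, 5 over the ligation group and 5 over the cells group. The heavy chain genes are near-identical over long stretches: 30.4% of the 31-mers of Myh4 and 42.9% of those of Myh1 occur in another gene, so counts are uncertain as to which of them a read came from.

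The fast light chains went different ways. Mylpf (ENSMUSG00000030672, chr7:127208890-127214298), the regulatory light chain of fast fibres, had 9, 15 and 6 counts in sham, 11, 8 and 17 in ligation and 7, 9 and 12 with cells. The 3 groups overlapped, at 1.67 ± 0.760, 1.87 ± 0.630 and 1.32 ± 0.373 CPM (SD, n = 3). The log2 difference was 0.14 (SE 0.437, edgeR adjusted p 0.828) for ligation against sham and -0.33 (SE 0.454, edgeR adjusted p 0.591) for cells against sham. Pooled counts of 36 in ligation and 30 in sham gave a ratio of 1.10 with a 95% counting interval of 0.659 to 1.85, which covers counting error only and leaves out the spread between libraries.

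Myl1 (ENSMUSG00000061816, chr1:66924295-66945404), the essential light chain of fast fibres, was far more abundant than the others. It had 385, 371 and 434 counts in sham, 680, 919 and 1034 in ligation and 1108, 1198 and 1168 with cells. All 3 groups were apart from each other, in the order sham, ligation, cells. The levels were 66.0 ± 4.37, 135 ± 8.15 and 163 ± 5.88 CPM (SD, n = 3). Myl1 rose by 1.03 on the log2 scale after ligation (SE 0.0673, adjusted p 1.43e-10, edgeR quasi-likelihood test) and was higher by 1.31 with cells than in sham (SE 0.0665, adjusted p 2.69e-12, same edgeR test). Cells against ligation gave 0.28. It shares 14.5% of its 31-mers with the pseudogene Mylf-ps. Per kilobase of exon, Myl1 was at 31.8 CPM in sham, where the next fast member, Mylpf, was at 1.57. A sum over all 10 genes is therefore mostly Myl1: it was 72.4 ± 3.02 CPM (SD, n = 3) in sham, 150 ± 9.47 in ligation and 167 ± 6.92 with cells, whereas the 8 genes other than Myl1 and Pvalb summed to 5.75 ± 1.46, 11.4 ± 1.58 and 3.11 ± 1.09 CPM. The second sum, a split made after the values were seen, was highest in ligation and lowest with cells.

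Atp2a1 (ENSMUSG00000030730, chr7:126445858-126463108), the fast-fibre calcium pump SERCA1, had 6, 5 and 6 counts in sham, 5, 6 and 12 in ligation and 1, 3 and 3 with cells. Like Tnni2 it overlapped between sham and ligation and was lower with cells than in either. Pooled counts of 7 with cells and 17 in sham gave a ratio of 0.349 with a 95% counting interval of 0.122 to 0.886, but the edgeR fit without a filter gave an adjusted p of 0.180. Of its exon bases 21.9% lie in exons of Rabep2 on the opposite strand. Actn3 (ENSMUSG00000006457, chr19:4861216-4877909), the fast-fibre alpha-actinin of the Z-disc, had 0, 3 and 2 counts in sham, 7, 5 and 5 in ligation and 2, 3 and 1 with cells. Its ligation libraries were above all others in CPM, and the pooled ratio to sham was 3.12 (interval 1.10 to 10.8), with an edgeR adjusted p of 0.232 in the fit without a filter. Of the 10 genes, 5 passed the filter on low counts (Pvalb, Tnnt3, Tnni2, Mylpf and Myl1), and Tnnc2, Myh4, Myh1, Atp2a1 and Actn3 did not.

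Over all 13825 genes tested, edgeR called 38.2% between ligation and sham, 9.87% between cells and ligation and 40.9% between cells and sham, at an adjusted p under 0.05. Library totals in place of TMM factors moved the median log2 fold change of all genes from 0.01 to 0.20 in ligation against sham and from -0.01 to 0.15 in cells against sham. The share of calls that were higher then went from 52.7% to 78.7% and from 51.2% to 73.1%, and in cells against ligation from 42.4% to 32.2%.

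**Figure D2:**
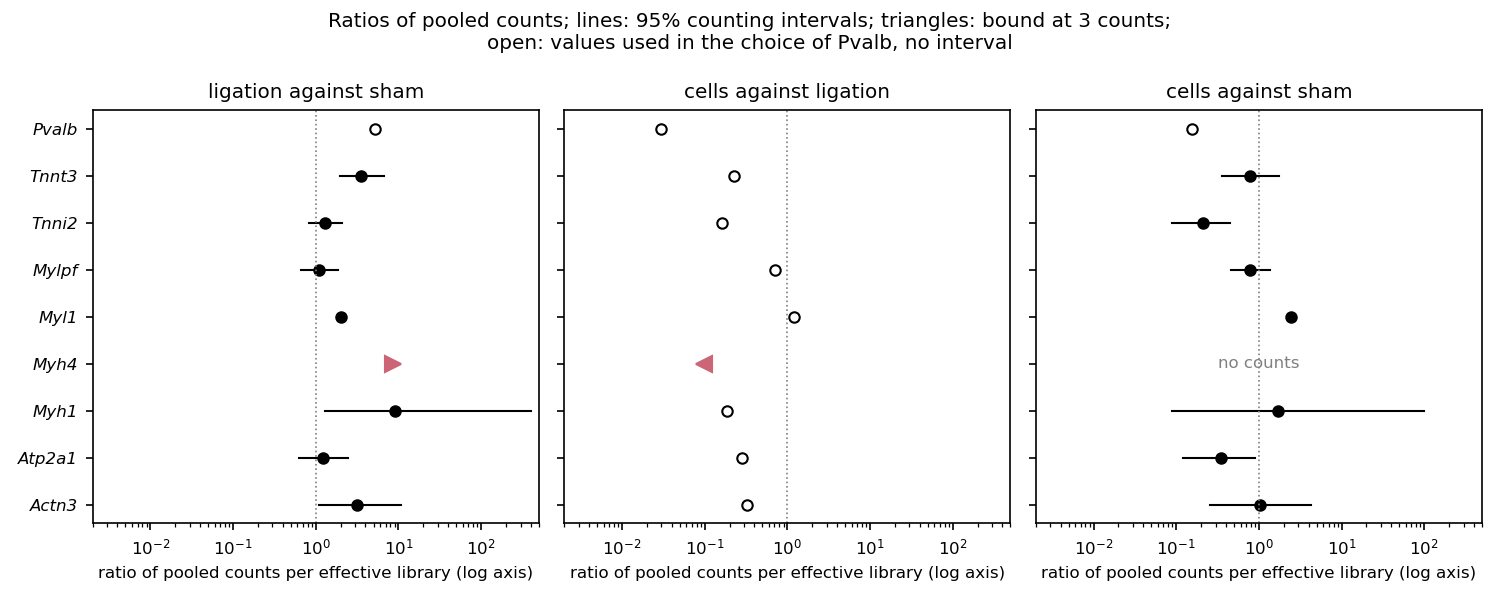
Ratio of pooled counts per effective library for 9 fast genes in the 3 comparisons (log axis), with points for the ratio and lines for the 95% counting interval; open points, for Pvalb and for cells against ligation, have no interval because those values were used in the choice, and triangles mark the bound for Myh4, which had 0 counts in one of the groups, and Tnnc2 is left out. In ligation against sham the intervals of Tnnt3, Myl1, Myh1 and Actn3 lay above 1, and those of Tnni2, Mylpf and Atp2a1 included 1. Pvalb, drawn without an interval, and Myh4, by its bound, were also higher in ligation than in sham. Myl1 alone was above 1 with cells against ligation.

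Set beside their cardiac counterparts per kilobase of exon, the fast genes were minor forms in every group. Tnnt3 was at 0.0430% ± 0.0211 (SD, n = 3) of the level of Tnnt2 in sham, 0.163% ± 0.0516 in ligation and 0.0398% ± 0.0337 with cells. Tnni2 was at 0.0452%, 0.116% and 0.0194% of the level of Tnni3, cardiac troponin I, whose own means were 2945, 1530 and 1444 CPM per kilobase in the same order. Myh4 reached 0.0180% ± 0.0105 of Myh6, the adult cardiac motor, in ligation. Myl1 differed in scale, at 1.003% ± 0.0935 of Myl3, the ventricular essential light chain, in sham, 3.86% ± 0.196 in ligation and 4.22% ± 0.200 with cells. Atp2a1 shares 0.403% of its 31-mers with Atp2a2 and Actn3 shares 0.731% with Actn2, and the part of reads from these abundant counterparts in their counts was not tested.

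**Figure D3:**
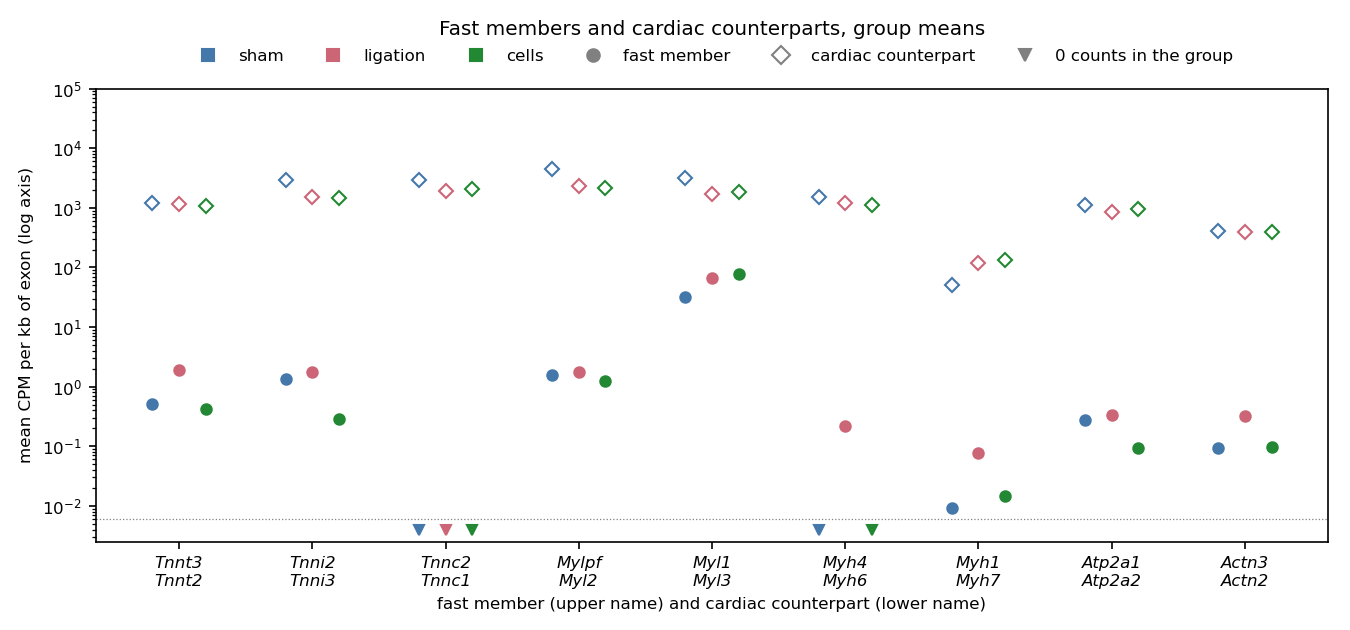
Mean CPM per kilobase of exon (log axis) of the 9 fast genes other than Pvalb (filled circles), each with its cardiac counterpart (open diamonds) in the 3 groups, with triangles under the dotted line for groups with 0 counts. Myl1 lies between 31.8 and 78.8 CPM per kilobase, and every other fast gene plotted is at or under 1.90, while cardiac counterparts run from 51.7 to 4453.

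The 3 ligation libraries were not ranked alike by the fast genes. Ligation replicate 1 had 17 counts of Pvalb and 2 of Myh4, replicate 2 had 15 and 11, and replicate 3 had 30 and 15. In CPM, Pvalb was at 3.61, 2.17 and 3.74 in replicates 1 to 3, whereas Myh4 was at 0.425, 1.59 and 1.87. Tnnt3 (4.04, 1.88 and 3.12 CPM) and Mylpf (2.34, 1.15 and 2.12 CPM) were lowest in replicate 2, as Pvalb was, whereas Myh1 (0.213, 1.01 and 0.249 CPM) was highest there. The shallow replicate 1 thus held high levels of Pvalb, Tnnt3 and Actn3 and the lowest level of Myh4. With 1 to 30 reads behind each value the counting error is large, and no test of the proportions was made.

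**Figure D4:**
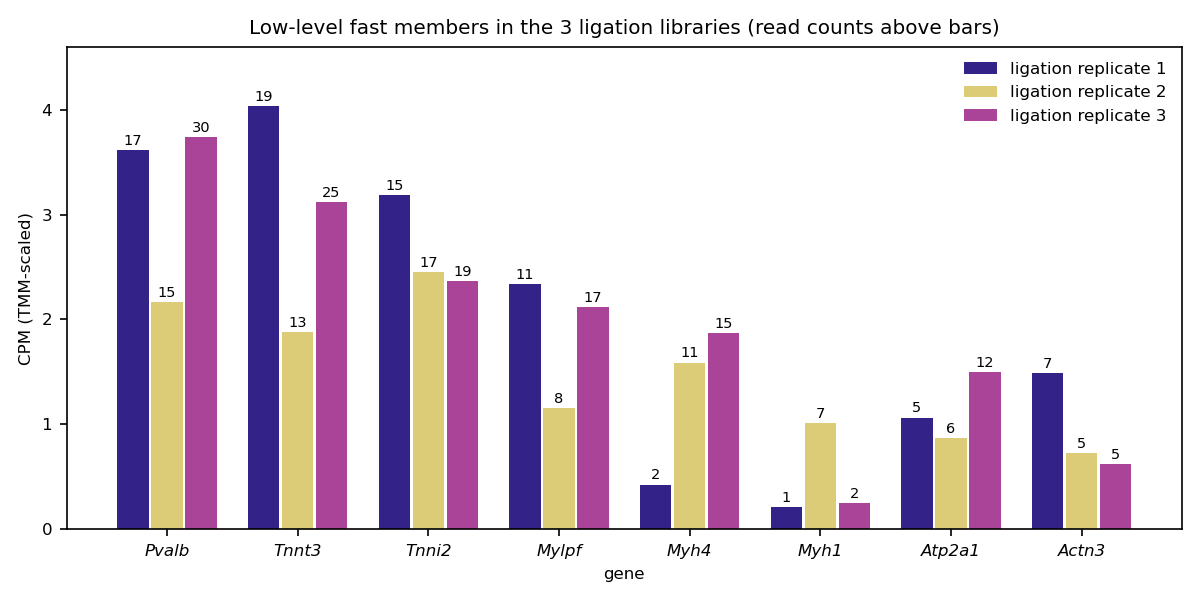
CPM (linear axis) of the 8 fast genes other than Myl1 and Tnnc2 in the 3 ligation libraries, with the read count written above each bar. Pvalb, Tnnt3 and Mylpf are lowest in replicate 2, and Myh4 is lowest in replicate 1.

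Of 22 other genes of adult skeletal muscle outside the set, 15 were tested. After ligation 5 were higher and 6 lower than in sham by the edgeR test, where 20.1% of the 13825 tested genes were higher and 18.0% lower, with a median log2 fold change of -0.13 against 0.01 over all genes. With cells against ligation 5 were higher and 0 lower, against 4.19% and 5.69% of all genes. With cells against sham 6 were higher and 4 lower, against 21.0% and 20.0%. Acta1, skeletal alpha-actin, which the stressed heart also makes, rose by 0.41 after ligation and by a further 0.55 with cells on the log2 scale (edgeR adjusted p 4.30e-08 and 4.10e-09). Ckm, muscle creatine kinase, which heart shares with skeletal muscle, was at 638 ± 20.7 CPM (SD, n = 3) in sham, 608 ± 15.1 in ligation and 650 ± 13.8 with cells, and its differences in ligation and in cells against sham did not pass (edgeR adjusted p 0.206 and 0.647). With library totals alone in place of TMM scaling its sign turned after ligation, to 0.12, and both of these differences passed. Mylk2, the skeletal myosin light chain kinase, had 0, 1 and 2 counts in sham, 9, 14 and 3 in ligation and 15, 8 and 6 with cells. It is among the genes counted as higher in ligation and in cells against sham, but it passed the filter on low counts only through 2 ligation libraries and 1 cells library. Its edgeR adjusted p of 0.0112 after ligation was 0.0677 without ligation replicate 2, and that of 0.00926 for cells against sham was 0.0506 without cells replicate 1. Of the 7 genes under the filter, 3 were higher without overlap in ligation than in sham (Myh2, Cacng1 and Stac3) and 2 were lower with cells than in ligation (Ryr1 and Stac3), where 15.4% and 9.44% of the genes with at least 1 count were. Cacng1 had 1, 12 and 9 counts over sham, ligation and cells, and Myoz1 had 6, 19 and 12. In the same order Ryr1 had 11, 13 and 4, Ampd1 had 1, 4 and 1, and Smtnl1 had 0, 0 and 3. Stac3, which encodes a protein of the excitation-contraction coupling complex, had 3, 3 and 3 counts in sham, 3, 5 and 11 in ligation and 4, 2 and 2 with cells. It was the 1 gene of these 7 whose ligation libraries were above all others in CPM.

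Genes that mark the making of skeletal muscle were at or near 0. Myod1 and Myog, which set the lineage, had 2 counts and 1 count over the sham group and 0 over both other groups, and Pax7, which marks muscle stem cells, had 0 counts in all libraries. Of 13 lineage and endplate genes 3 were tested, of which 1 rose (Dok7) and 1 fell (Rapsn) after ligation and 0 differed with cells against ligation by edgeR, where 20.1% of all tested genes rose, 18.0% fell and 9.87% differed. Adult fibres make little of the lineage transcripts. Of 7 embryonic and perinatal muscle genes, 2 were tested: Myl4, given with the atrial genes, and Ncam1, the neural cell adhesion molecule, which rose by 1.53 on the log2 scale after ligation (edgeR adjusted p 1.82e-07). Myh3, the embryonic motor, had 0 counts in all libraries, and Myh8, the perinatal motor, had 1 count over sham, 0 over ligation and 11 over the cells group.

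Among slow-fibre genes, many of which the ventricle uses as its own, 9 of 11 were tested, and after ligation 1 rose (Myh7, by 1.22) and 7 fell, against 20.1% and 18.0% of all tested genes. The largest fall was that of Myh7b, by 1.67 on the log2 scale (edgeR adjusted p 6.12e-13). With cells against ligation 3 rose and 0 fell, against 4.19% and 5.69%, led by Sln, which encodes sarcolipin, an inhibitor of the calcium pump that is abundant in atrium. Sln rose by 1.80 on the log2 scale with cells, from 55.3 ± 1.16 to 193 ± 20.6 CPM (SD, n = 3, edgeR adjusted p 1.13e-12). The atrial light chains Myl4 and Myl7 rose alongside, by 1.79 and 1.60 (edgeR adjusted p 3.24e-13 and 8.95e-13). Myl1 and these 3 genes were each highest in the cells group. After ligation alone they differed: Myl1 rose, while Sln, Myl4 and Myl7 fell by 0.25, 0.46 and 0.68 in log2 units (edgeR adjusted p 0.0186, 9.59e-06 and 8.30e-08). For Sln that call was lost with library totals alone (edgeR adjusted p 0.553) and without sham replicate 3 (0.0969). The part of atrial tissue in the level of Myl1 was not tested.

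Markers of other tissues near the heart were looked at beside Pvalb. The neuron list of 12 genes summed to 18.8 to 20.2 CPM in sham, 40.3 to 55.9 in ligation and 36.9 to 42.5 with cells, almost all of it Uchl1 and Dbh. The defining genes of inhibitory neurons were at or near 0: Slc32a1 and Sst had 0 counts in all libraries, and Gad1 had 2 counts in sham and 0 elsewhere. Uchl1 rose by 1.53 after ligation (edgeR adjusted p 2.60e-08) and was still 1.13 higher than sham with cells, where Pvalb had at most 1 count; its difference between cells and ligation was -0.40 (edgeR adjusted p 0.0412) and did not pass in 4 of 9 fits that left out 1 library, with adjusted p-values up to 0.325 (without ligation replicate 3), nor with the replicate block (0.0652) or DESeq2 (0.0825). In ligation against sham 3 of the 12 neuron genes were higher without overlap (Th, Dbh and Uchl1) and 0 were lower. Of genes with at least 1 count, 15.4% and 14.3% were. In cells against ligation 0 were higher and 1 was lower (Prph), against 8.19% and 9.44%. The part of nerve tissue in the level of Pvalb was not tested. The fat list of 9 genes summed to 1533 to 1718 CPM in sham, 1066 to 1156 in ligation and 1157 to 1292 with cells, mostly Fabp4, which capillaries of the heart make. After ligation 4 of its 7 tested genes were higher and 3 lower by edgeR, against 20.1% and 18.0% of all tested genes. Fabp4, Cidea and Ppargc1a fell by 0.66, 0.40 and 0.31 on the log2 scale, with a largest edgeR adjusted p of 0.0111. The fat-cell genes Adipoq, Plin1 and Cidec rose by 3.89, 3.69 and 2.91 after ligation, with a largest edgeR adjusted p of 7.99e-08, and Lep, which passed the filter only through the ligation and cells libraries, had 1 or 2 counts in each sham library, 7 to 23 in ligation and 19 to 27 with cells. With cells against ligation 0 of the 7 tested fat genes passed, where 9.87% of all tested genes did. Adipoq was at 1.44, 21.7 and 17.9 CPM in sham, ligation and cells, so it was high both in ligation, where Pvalb, Tnnt3 and Myh4 were high, and with cells, where they were low. The part of fat tissue in the levels of the fast genes was not tested. Ucp1, which marks brown fat, had 1 count in all libraries together. The lung and thymus list of 10 genes summed to 2.47 to 3.02 CPM in sham, 3.87 to 6.59 in ligation and 2.59 to 3.96 with cells, with Sftpc, the defining surfactant gene, at 2 counts in 1 cells library and 0 elsewhere, and Sftpa1 and Sftpd at 0 throughout. Scgb1a1, the secretoglobin of airway club cells, had 0 counts in every sham library, 6, 7 and 2 in ligation and 1, 0 and 0 with cells. Its ligation libraries were above all others, as those of Pvalb and Myh4 were. Of the 10 genes on this list 2 were higher without overlap in ligation than in sham (Scgb1a1 and Ager) and 2 lower with cells than in ligation (Scgb1a1 and Cd4), where 15.4% and 9.44% of the genes with at least 1 count were. Nothing is read from these counts for the list, and the part of lung tissue in the levels of the fast genes was not tested. Of 7 other small calcium-binding proteins of the EF-hand family 4 were tested and 0 passed with cells against ligation, where 9.87% of all tested genes did. In ligation against sham 1 of the 4 was higher (Calm3) and 1 lower (S100a1) by edgeR, against 20.1% and 18.0% of all tested genes. The same 2 genes passed in the same directions in cells against sham, against 21.0% and 20.0%. Ocm, oncomodulin, the beta-parvalbumin, had 0 counts throughout.

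The profile of Pvalb over the 9 libraries was set against that of every tested gene outside the set, by the root mean square difference of log2 CPM after each gene's mean was removed, with a prior count of 2. The median over tested genes was 1.37. The nearest genes were Retnla (0.540), a secreted resistin-like protein, Sla (0.555), an adaptor of antigen-receptor signalling, Ccl8 (0.571), a chemokine, Ccr1 (0.614), a chemokine receptor, and Lair1 (0.618), an inhibitory receptor for collagen. The means of Retnla were 2.28, 9.49 and 2.13 CPM in sham, ligation and cells, and those of Ccr1 were 3.76, 7.80 and 1.08. Within the set the distance from Pvalb was 0.624 for Tnnt3, 0.816 for Tnni2, 1.25 for Mylpf and 1.48 for Myl1. Pvalb and Tnnt3 passed the filter on low counts only through the ligation libraries, so a profile that is high there was built into both, and nothing is read from their likeness.

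**Figure D5:**
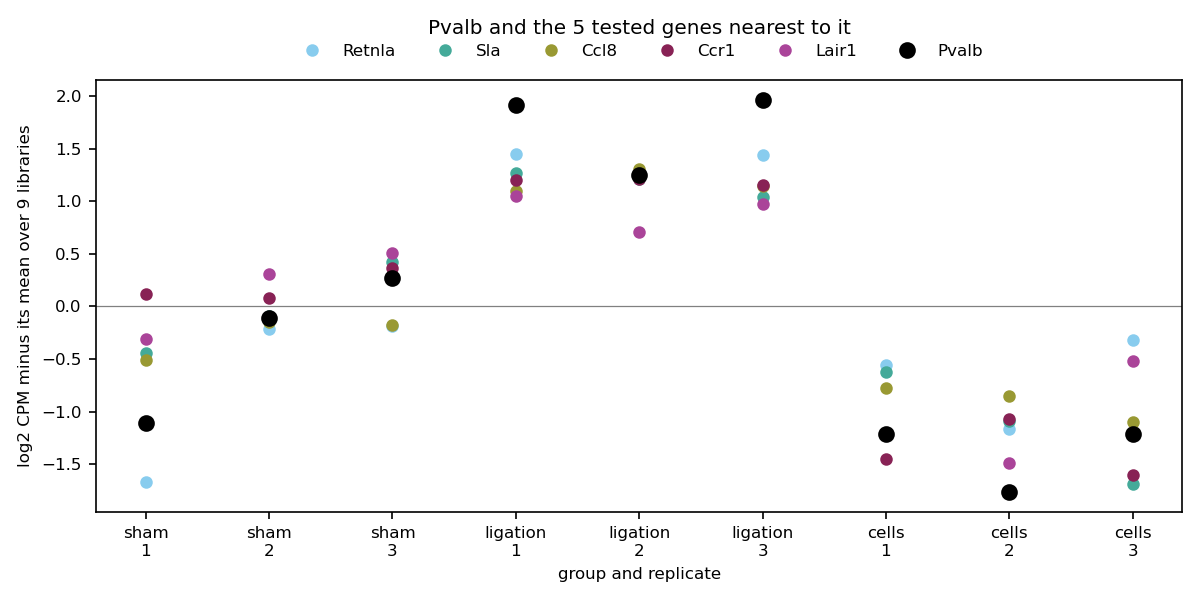
Log2 CPM minus its mean over the 9 libraries (linear axis) for Pvalb (black) and the 5 tested genes nearest to it, by group and replicate. All 6 genes are above their means in the 3 ligation libraries and below them in the 3 cells libraries; sham libraries lie below the ligation libraries and, for Retnla, in part below the cells libraries.

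The sum of the other 9 genes, which is mostly Myl1, had other neighbours: Prss23 (0.0709), Ppp1r3c (0.0744), Dnaja4 (0.0762), Fgl2 (0.0771) and Enah (0.0809), a serine protease, a glycogen-targeting phosphatase subunit, a co-chaperone, a fibrinogen-like protein and an actin regulator. The means of all 5 were lowest in sham and highest with cells, as those of Prss23 were at 16.5, 32.1 and 36.6 CPM in sham, ligation and cells. Without Myl1, a sum chosen after the values were seen, the nearest genes were Fcgr4 (0.232), Ms4a4a (0.284), Tlr13 (0.300), Zbtb16 (0.302) and H2-Eb1 (0.306). Fcgr4, an antibody Fc receptor of myeloid cells, had means of 2.33, 5.35 and 1.22 CPM in sham, ligation and cells.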

How the data were processed

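RNA was sequenced from 9 heart libraries, made with TRIzol and an NEBNext Ultra kit per the labels' protocols. The authors deposited unnormalised counts of reads for each Ensembl gene. The genome build is mm10 per the submitters' processing notes, and the aligner, counter, strand setting and annotation release are not given in the sources used here. Gene symbols, positions, exon lengths, overlaps and shared 31-mers came from GENCODE M21 on GRCm38, the same build as mm10, with 53274 of 53465 IDs matched, and all 108 listed symbols. Promoters came from RefSeq, GRCm38.p6.

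Counts were analysed in R 4.3.3 with edgeR 4.0.16: filterByExpr (13825 genes kept), TMM factors, 1 quasi-likelihood fit over all 9 libraries with 6 residual degrees of freedom, two-sided tests, Benjamini-Hochberg adjustment over all tested genes, threshold 0.05. The steps were tested on simulated data. SE is the log2 fold change divided by the square root of F. Ratios of pooled counts carry 95% exact binomial intervals, and bounds use a floor of 3 counts over the group, while the limit of detection of a library is 3 counts in it. The libraries carry no stated molecular identifiers, so reads may repeat a molecule, and both cover counting error only. The members and lists were chosen with earlier results of these data known. All 10 members are named, with, from the other lists, genes that define a list, cardiac counterparts, and up to 4 genes a list called with at least 1 in absolute log2 fold change. A few further genes (Dok7, Rapsn, Dbh, Th, Prph, Ocm, Slc32a1, Sst, Fabp4, Myh3, Myh8, Stac3, Scgb1a1, Sftpa1, Sftpd, Cidea, Ppargc1a, Ryr1, Cacng1, Myoz1, Ampd1, Smtnl1, Ager, Cd4, Calm3, S100a1) were named after their values were seen. Alternatives covered scaling, filter, DESeq2 1.42.0, groups in the fit, a replicate block, mitochondrial genes, left-out libraries and, added after seeing the data, summing libraries with a shared header stem. Replicate pairs differed by more than sampling noise (mean chi-square per gene 1.96 to 3.84). Figures used matplotlib 3.10.9.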

Additional observations from a re-analysis of the deposited data

How the results depend on the processing

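Counts of genes past 0.05 stayed within 1.5 times of the reported ones under every alternative, with 4487 to 5459, 951 to 1398 and 5055 to 5746 genes in fits without 1 library. Over 69 results, 531 of 546 values under settings other than leaving out a library kept direction and side of the threshold. Signs turned for genes that did not pass: Ckm in ligation against sham became 0.117 with library totals alone, and Mylk2 in cells against ligation became -0.0168 with library totals alone, -0.00558 without a filter, -0.0279 with the replicate block, -0.0345 with DESeq2 and -0.0215 with libraries of a shared header stem summed. The cause was not tested. Fits without 1 library ranged from -0.148 to 0.540 for Mylpf in ligation against sham and -0.625 to 0.0622 in cells against sham, -1.20 to 0.139 for Tnnt3 in cells against sham, -0.525 to 0.451 for Mylk2, -0.223 to 0.364 for Plin1 and -0.113 to 0.0471 for Cidec in cells against ligation, and -0.00101 to 0.0442 for Ckm in cells against sham. Myl1 ranged from 0.976 to 1.06 and Tnnt3 from 1.58 to 2.27 in ligation against sham. A replicate block, the numbers coming from the titles, gave 5134, 1230 and 5511 genes past the threshold in the 3 comparisons and changed no call of a tested member. Deviations of same-numbered libraries correlated at -0.125 to 0.143, which shows no strong pairing by number. With 3 libraries a group this cannot exclude a shared litter, day or batch. Summing libraries by header stem gave Tnnt3 1.82 (edgeR adjusted p 0.0185) and Tnni2 in cells against sham -2.20 (0.00363). In the main fit 0 cells libraries reached the level of the filter on low counts for either gene. For Tnnt3, 0 sham libraries did. Depth limits the set: Myh1, Actn3 and Atp2a1 had few reads per library, and the size of difference that could be detected at that depth was not tested.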
